A study of Mus musculus with 7 samples.

Results

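Galectins are lectins that bind glycans ending in galactose. The 5 galectin genes Lgals1, Lgals3, Lgals4, Lgals8 and Lgals9 were taken by gene symbol from the 32285 genes counted in single LSK cells, the bone marrow cells that lack lineage proteins and carry Sca-1 and cKit and that hold stem cells and multipotent progenitors. The 7 libraries came from bone marrow of mice on a mixed 129S1/C57Bl/6 background. Of these, 3 carried the genotype 129S1/C57Bl/6, B4-/- (a full knockout of B4galt1 per the series' design text, called KO1 to KO3) and 4 the genotype 129S1/C57Bl/6 (wild type, WT1 to WT4). The age and sex of the mice, how many mice stand behind a library, and which part of B4galt1 was deleted are not given in the sources used here. No label says that the libraries of a group come from separate animals, so p-values measure the spread between these libraries, which may be technical.

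The product of B4galt1 is a Golgi galactosyltransferase, which makes glycan ends of the kind that galectins bind. Galectins are made without a signal peptide, leave the cell by an unconventional route, and act on glycoproteins at the cell surface or on damaged endosomes and lysosomes inside the cell. Lgals1 encodes galectin-1, a dimer with 1 carbohydrate-binding domain per chain. Lgals3 encodes galectin-3, the family's chimeric member, known as a marker of macrophages. Lgals4, Lgals8 and Lgals9 encode tandem-repeat galectins, in which a linker joins a pair of binding domains: galectin-4 is known from the gut epithelium, galectin-8 from the sensing of damaged vesicles, and galectin-9 as a ligand of Tim-3. RNA was counted here, so neither the proteins nor the glycans they bind were measured.

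In GENCODE M21, an annotation of GRCm38 (mm10, the build in the submitters' processing notes), Lgals1 (ENSMUSG00000068220) lies on chromosome 15, 78926725 to 78930465, on the plus strand. Lgals3 (ENSMUSG00000050335) lies on chromosome 14, 47367751 to 47386160, plus strand. Lgals4 (ENSMUSG00000053964) lies on chromosome 7, 28833854 to 28841708, plus strand. Some mouse strains carry Lgals6, a near-identical copy of Lgals4 that is not among the genes counted, so Lgals4 counts are uncertain. Lgals8 (ENSMUSG00000057554) lies on chromosome 13, 12439415 to 12464944, minus strand, and overlaps Heatr1 on the opposite strand. The strand setting of the counting is not given in the sources used here, so reads in that overlap are uncertain. Lgals9 (ENSMUSG00000001123) lies on chromosome 11, 78962974 to 78984946, minus strand.

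RefSeq's promoter table (GRCm38.p6) held 4 of the 5 genes, all but Lgals1. The 3 promoters below belong to galectins with unlike levels over the cell states described later: Lgals3 was high in monocyte-primed cells, Lgals8 in quiescent stem cells, and Lgals9 was higher in cycling than in quiescent stem cells. Each runs 5′ to 3′ from 250 bases before the start site to 50 bases after it. Capitals mark matches, on either strand, to 1 of 5 motifs: the GATA motif AGATAA, the Runx motif TGTGGT, the ETS motif AGGAAGT, the GC box GGGCGG and the interferon-response motif, a pair of GAAA spaced by 2 bases.
Lgals3, chr14:47373610-47373909, plus strand: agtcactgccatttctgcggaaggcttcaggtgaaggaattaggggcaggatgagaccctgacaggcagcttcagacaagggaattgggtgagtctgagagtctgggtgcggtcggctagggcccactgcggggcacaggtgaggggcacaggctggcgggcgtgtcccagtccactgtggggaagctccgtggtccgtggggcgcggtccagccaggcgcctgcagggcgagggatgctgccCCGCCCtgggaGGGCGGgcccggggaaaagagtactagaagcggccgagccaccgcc
Lgals8, chr13:12461689-12461988, minus strand: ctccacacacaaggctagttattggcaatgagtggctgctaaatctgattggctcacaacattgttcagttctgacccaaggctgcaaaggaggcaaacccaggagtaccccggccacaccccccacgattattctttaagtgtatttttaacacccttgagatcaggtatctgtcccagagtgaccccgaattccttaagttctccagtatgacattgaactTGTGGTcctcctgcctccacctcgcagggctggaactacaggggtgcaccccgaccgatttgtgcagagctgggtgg
Lgals9, chr11:78984875-78985174, minus strand: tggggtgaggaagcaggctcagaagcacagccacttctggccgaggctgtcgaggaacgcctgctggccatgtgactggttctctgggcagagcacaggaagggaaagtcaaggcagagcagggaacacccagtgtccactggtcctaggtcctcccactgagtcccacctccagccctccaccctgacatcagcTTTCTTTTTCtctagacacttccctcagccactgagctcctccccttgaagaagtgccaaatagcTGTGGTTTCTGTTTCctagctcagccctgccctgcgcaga
The Lgals3 window was GC-rich (67.0% G or C, 18 CpG) and held 2 GC boxes, a motif found in 35.7% of the 32851 promoters of the same length. The Lgals8 window (51.7% G or C, 6 CpG) held 1 Runx match, found in 16.8% of promoters. The Lgals9 window (58.0% G or C, 4 CpG) held 2 interferon-response matches, found in 3.44% of promoters, and 1 Runx match that overlaps the second of them. The median promoter had 52.7% G or C and 7 CpG. A match describes these letters and is not a binding site.

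The libraries held 14970791 to 89747946 UMIs, and 24430 of 36465 barcodes were kept as cells, 1172 to 8862 per library, with a median of 8046 to 11084 UMIs per cell. Their barcodes came from 2 sequence lists: list A for KO1, KO2, WT1, WT2 and WT3, and list B for KO3 and WT4. Of the barcodes of a library, 32.4% to 49.9% were kept in list A and 96.2% to 98.3% in list B. Ribosomal protein genes took 13.7% to 20.8% of UMIs in list A and 29.997% to 30.2% in list B. The list therefore enters the label tests as a covariate, and values are also given within each list, where list B has 1 library per label and no replicate. Libraries of different lists shared 0 to 2 kept barcodes, and those of the same list 0 to 68. The RNA of B4galt1 did not separate the labels: its normalised CPM was 31.8 to 53.2 in KO and 39.5 to 60.8 in WT (edgeR log2 fold change -0.14, adjusted p 0.537, SE 0.12), and a 3′ count outside the deleted part checks nothing. Groups are therefore named by their labels. The sort genes Ly6a and Kit were present in every library, at a summed 185 to 339 CPM. Macrophage genes (C1qa, C1qb, C1qc and Vcam1) summed to at most 7.54 CPM. Genes of other cell types reached higher sums over all kept cells. T, NK and innate lymphoid genes summed to 77.8 to 245 CPM and endothelial genes to 81.8 to 233. Mature erythroid genes summed to 17.9 to 158 CPM, secondary-granule neutrophil genes to 5.38 to 1106, and B cell genes to at most 48.9. These sums therefore do not show a sort free of other cells.

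Each cell was placed in the first of an ordered set of gates on marker UMIs that it met, and no gate used a galectin gene. The gates that carry most of what follows are granule-high (Elane, Prtn3, Ctsg and Mpo, at least 100 UMIs together), monocyte-primed (Irf8, Csf1r, Ly86, Ccr2, F13a1 and Ms4a6c, at least 15), early lymphoid (Il7r, Rag1 and Rag2), Dntt-positive, early Mpo-positive (the granule genes at 10 or more), stem (Procr, Hlf, Fgd5, Mecom, Mllt3 and Trpc6, split into cycling and quiescent by mitotic genes) and Flt3-high. A gate is a range of marker UMIs and not a proven cell type. At the granule-high limit, 17 cells held exactly 100 UMIs and 16 held 1 fewer. For the monocyte-primed limit the numbers were 82 and 87, and for the Dntt-positive limit of 2 UMIs they were 914 and 2309.

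Lgals1 UMIs were concentrated in granule-high cells, to a degree that differed between libraries. Over the 7 libraries summed, granule-high cells were 6.20% of kept cells and held 40.8% of Lgals1 UMIs, and within a library they held from 5.88% in WT3, where they were 0.600% of cells, to 63.5% in KO1, where they were 23.0%. The shares below are over the same sum, in which large libraries weigh more. Monocyte-primed cells, 2.52% of the cells, held another 11.8%. Quiescent stem cells were 18.4% of the cells and held 3.40%. The UMIs of Lgals3 were still more concentrated: monocyte-primed cells held 44.4% of them and the MHC class II gate, 0.671% of the cells, held 17.3%. Lgals4 and Lgals8 UMIs followed cell numbers and depth more closely, with 15.2% and 19.6% of them in quiescent stem cells. Early Mpo-positive cells, 16.7% of the cells, held 25.1% of Lgals9 UMIs and quiescent stem cells 7.29%. Cells differ in depth, with a median of 24064 UMIs in granule-high and 6918 in quiescent stem cells, so levels are given below relative to all UMIs of a state.

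**Figure D1:**
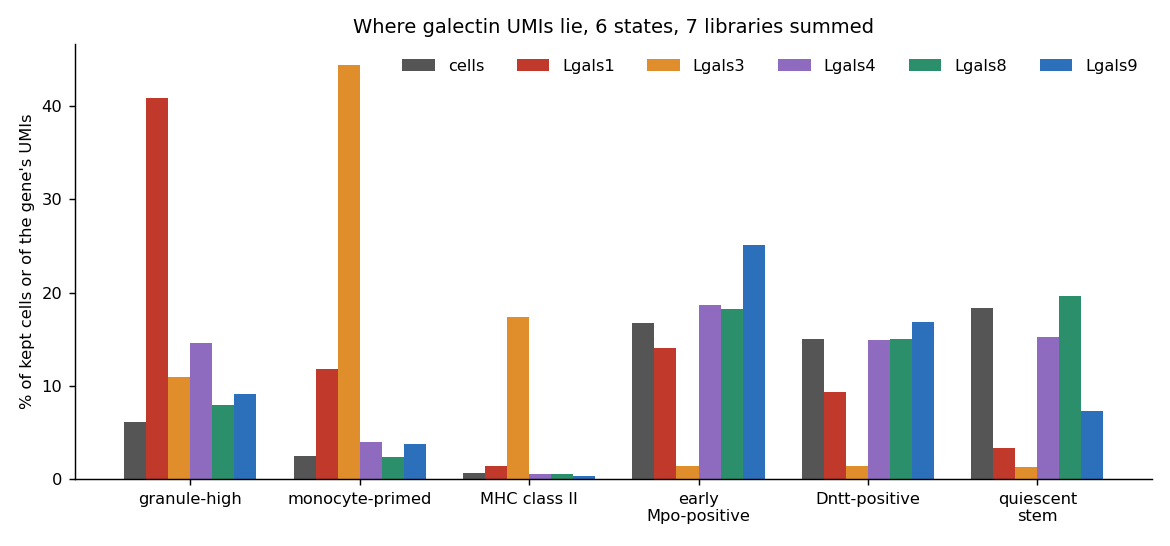
Share of kept cells (grey) and of each galectin's UMIs (colours), in %, in 6 marker-gated states, over the 7 libraries summed. The granule-high gate holds 6.20% of cells and 40.8% of Lgals1 UMIs, and the monocyte-primed gate 2.52% of cells and 44.4% of Lgals3 UMIs.

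The level of Lgals1, as counts per the usual CPM total (plain CPM, UMIs of the gene over all UMIs of the cells summed), stood at 475 ± 203 in monocyte-primed and 471 ± 230 in granule-high cells (SD, n = 7 libraries). It was 94.5 ± 40.2 in early Mpo-positive, 82.0 ± 40.9 in Dntt-positive, 66.9 ± 19.9 in mitotic cells without lineage markers and 66.6 ± 33.2 in early lymphoid cells. Flt3-high cells had 56.2 ± 27.1, cycling stem cells 55.6 ± 22.2 and quiescent stem cells 37.7 ± 16.6. The monocyte-primed and granule-high levels did not differ beyond their spread (exact permutation test over libraries, two-sided, p 0.969), while granule-high exceeded early Mpo-positive in 7 of 7 libraries, by a median of 5.28-fold (exact p 0.0156, the smallest that 7 libraries allow). From early Mpo-positive down to cycling stem cells, none of the 5 steps between neighbours in this order passed (exact p 0.0781 to 1.00). Neighbours were ranked on the same values, so these p are not adjusted.

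Among the 9 ranked states the lowest level of Lgals1 was in quiescent stem cells, and it was higher in cycling than in quiescent stem cells in 7 of 7 libraries, by a median of 1.52-fold (exact permutation p 0.0156, 0.0391 adjusted over the 5 galectins). The same pair was compared for each galectin after the levels had been seen. Granule-high cells had a median of 12.9 times the quiescent stem level, with a range over libraries from 6.90 to 18.6. In the edgeR fit over 5 states, each state against the mean of the other 4 with the library as a block, Lgals1 was lower in quiescent stem cells (log2 fold change -0.87, SE 0.10, adjusted p 6.45e-09). It was higher in early Mpo-positive (0.80, SE 0.08, adjusted p 3.11e-09) and Dntt-positive cells (0.53, SE 0.09, adjusted p 9.80e-06). Calls were common in these contrasts: 28.7% of 11922 genes were called lower in quiescent stem cells, 26.2% higher in early Mpo-positive and 22.5% higher in Dntt-positive cells. When the gates with 5 to 19 cells in a library were added, which sets 9 states against each other, granule-high (2.75, SE 0.10, adjusted p 1.48e-28) and monocyte-primed cells (2.58, SE 0.11, adjusted p 1.02e-24) rose above the rest, with 33.0% and 21.4% of 11956 genes called higher. Against that reference, Dntt-positive (-0.32, adjusted p 0.0839) and early Mpo-positive cells (-0.04, adjusted p 0.936) no longer stood above the mean of the others.

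**Figure D2:**
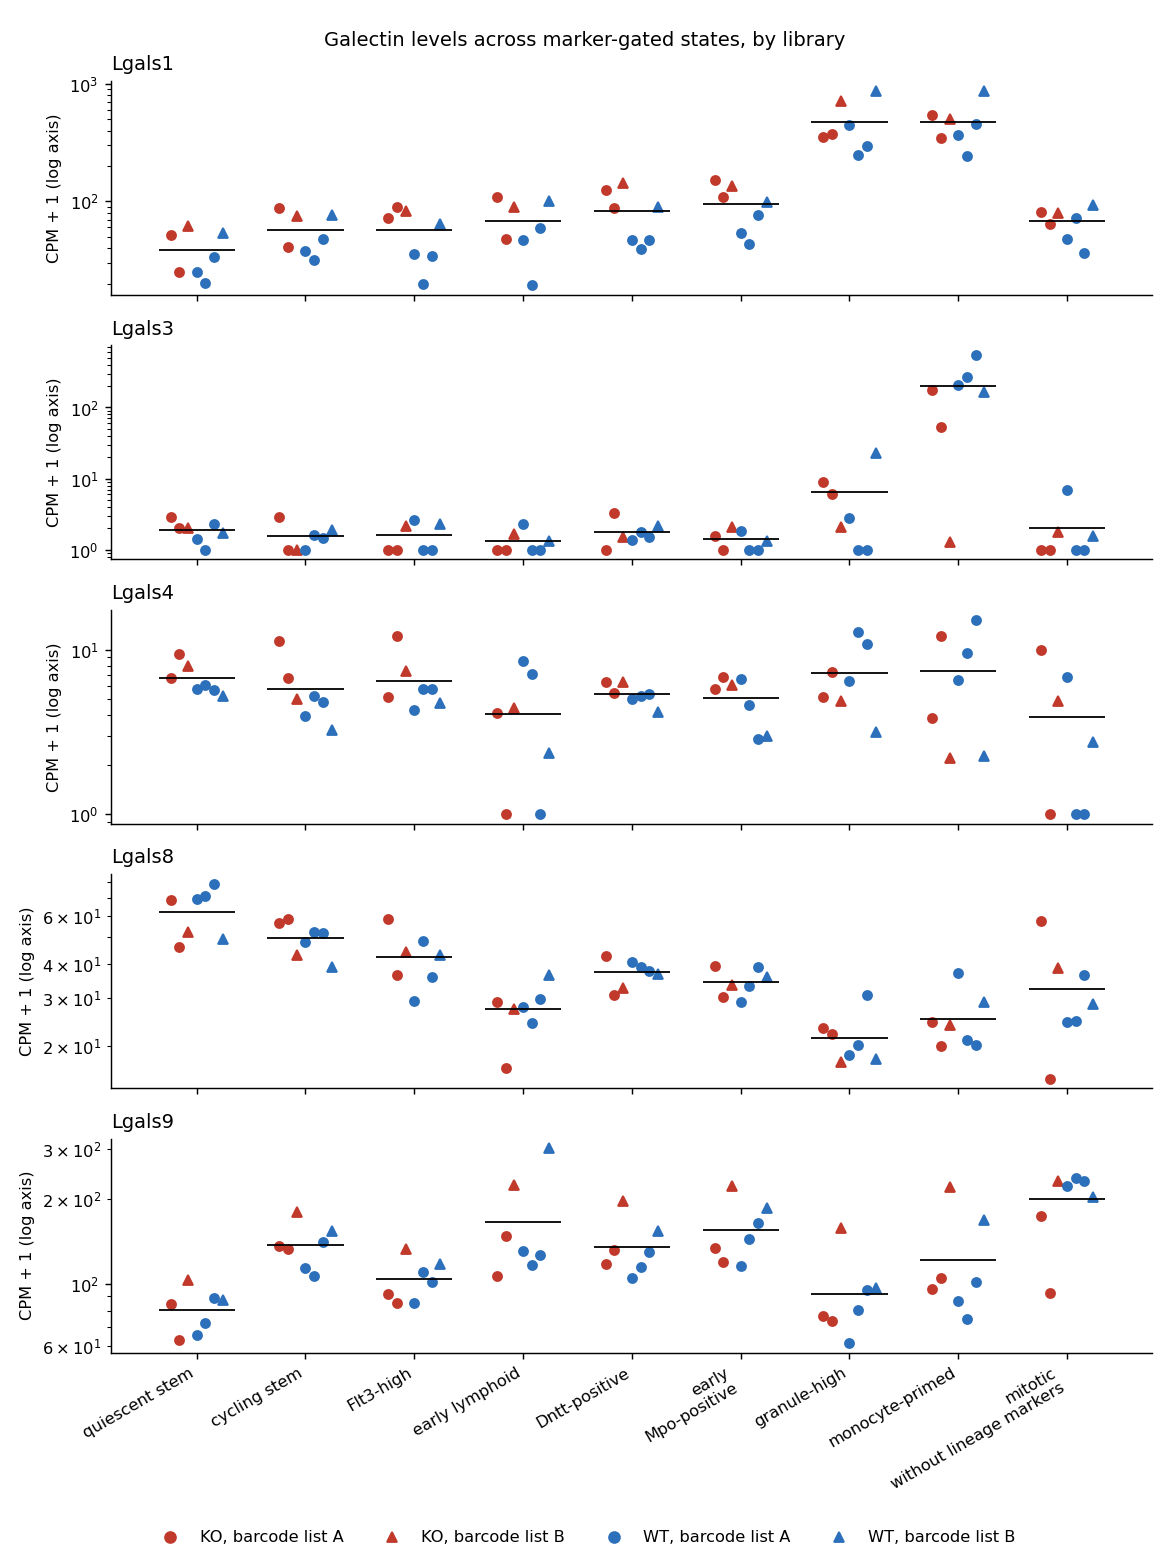
Level of each galectin (CPM plus 1, log axis) in 9 marker-gated states. Each point is 1 library, red for KO and blue for WT, circles for barcode list A and triangles for list B, and bars are means over 7 libraries; Lgals1 and Lgals3 peak in the myeloid gates at 475 and 201 CPM, while Lgals8 is highest in quiescent stem cells at 61.0 CPM.

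Galectin-1 RNA was not a feature of every myeloid cell. In the few cells of the secondary-granule neutrophil gate, marked by Camp, Ngp, Ltf and Lcn2, the level was 33.3 CPM in KO1 (29 UMIs in 51 cells) and at most 7.71 CPM in WT1, WT2 and WT3, from 1 UMI or fewer in 11 to 29 cells. The remaining libraries had 3 to 7 such cells. These cells give a reference for free RNA: after thinning to 3000 UMIs per cell, 8.70% of 46 such cells of KO1 and 0 of 19, 10 and 26 cells of WT1, WT2 and WT3 had an Lgals1 UMI. In quiescent stem cells the thinned share was 5.86% to 14.7% over the 7 libraries. The median depth was 9707 UMIs in the neutrophil gate and 6918 in quiescent stem cells. With so few neutrophil-gate cells the reference is imprecise, so the low quiescent stem shares are not read as expression. Basophil and mast cells of KO1, KO3 and WT4, the libraries with over 50 of them, had 255, 376 and 560 CPM.

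Lgals3 RNA was concentrated in a few gates. Its level in monocyte-primed cells was 201 ± 176 CPM (SD, n = 7), in granule-high cells 5.43 ± 7.92, and at most 1.03 on average in the other 7 states. Monocyte-primed exceeded granule-high cells in 6 of 7 libraries (exact permutation p 0.0313), and in the fit over 9 states Lgals3 was higher in monocyte-primed (log2 fold change 7.21, SE 0.35, adjusted p 8.74e-23) and granule-high cells (2.73, SE 0.53, adjusted p 1.37e-05). In the fit over 5 states it did not pass the filter on low counts and was not tested. The monocyte-primed level came from some of the cells: 0.592% (KO3) to 53.3% (WT3) of them had an Lgals3 UMI. In each library the 1% of kept cells with the most Lgals3 UMIs held 67.7% to 96.5% of the Lgals3 UMIs. Since only 1.12% (KO3) to 4.95% (KO1) of kept cells had any, that share is high by construction and adds little. The order of the other 7 states rests on few UMIs: quiescent stem cells held 32 Lgals3 UMIs among 4490 cells. Erythroid-leaning cells held 2 among 230. No order of those states is read from so few UMIs. In the secondary-granule neutrophil gate the level was 124 CPM in KO1 and 350, 100 and 184 CPM in WT1 to WT3, so these cells held Lgals3 and little Lgals1. In the MHC class II gate, a set of 3 to 113 cells per library with H2-Aa, H2-Ab1, H2-Eb1 and Cd74, the level ran from 128 CPM in WT2 to 1354 CPM in KO1.

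The monocyte-primed level of Lgals3 differed strongly between libraries. It was 175, 53.0 and 0.30 CPM in KO1, KO2 and KO3, and 205, 267, 543 and 162 CPM in WT1 to WT4. KO3 held 1 Lgals3 UMI in 169 monocyte-primed cells, where WT4, the other library of list B, held 128 UMIs in 52. On the normalised scale every KO library lay below every WT library, as 1.13% of the 8474 genes tested in this gate did. The edgeR estimate was -2.32 on the log2 scale (adjusted p 0.749, SE 1.19, in a fit that called 0.236% of genes) and -1.49 within list A (adjusted p 0.957), so the difference did not pass. The cells behind the gate were not alike: F13a1, a monocyte gene of the gate, was at 77.1 CPM in KO3 and 125 in WT4 but at 600 to 1080 in the libraries of list A. Irf8 ran from 512 to 861 CPM in all 7. Other gate genes did not set KO3 apart: Ccr2 was at 329 CPM in KO3 and 128 to 440 in the others. Csf1r was at 39.6 CPM in KO3 and 28.6 to 85.4 in the others, and Ly86 at 128 and 96.5 to 300. Ms4a6c was lowest in KO3, at 187 CPM against 232 to 381. Ly6c2, a monocyte gene outside the gate named after its values had been seen, was at 12 CPM in KO3 and at 137 to 443 in the others. Cd74, a gene of the MHC class II gate also named after its values had been seen, was at 10.4, 8.62 and 5.40 CPM in KO and 36.0, 39.8, 33.4 and 41.8 in WT, without overlap. The part of this mix in the Lgals3 difference was not tested.

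Among the 9 ranked states, Lgals8, relative to all UMIs of a state, was highest in the stem gates and lowest in the myeloid ones. Its level was highest in quiescent stem cells at 61.0 ± 12.6 CPM (SD, n = 7), followed by cycling stem cells at 48.8 ± 7.04 and Flt3-high cells at 41.2 ± 9.54. Cells that met no gate, 14.4% of kept cells and not ranked, were in the range of the stem gates. They had 60.2, 49.5 and 47.1 CPM in KO1 to KO3 and 43.9, 64.4, 61.8 and 42.9 in WT1 to WT4. It was lowest in monocyte-primed (24 ± 6.17) and granule-high cells (20.4 ± 4.64). Quiescent stem exceeded granule-high cells in 7 of 7 libraries by a median of 3.03-fold, with a range from 2.14 to 3.91 (exact permutation p 0.0156). Counted per cell over the 7 libraries summed, quiescent stem cells were not higher. They held 1976 Lgals8 UMIs in 4490 cells, and the deeper granule-high cells held 799 in 1514. No step between neighbours in the order passed (exact p 0.0781 to 0.656). In the fit over 5 states Lgals8 was higher in quiescent stem cells (log2 fold change 0.54, SE 0.06, adjusted p 4.85e-11), where 30.2% of genes were called higher. It was lower in early Mpo-positive (-0.37, SE 0.06, adjusted p 2.57e-06) and Dntt-positive cells (-0.26, SE 0.07, adjusted p 0.00100), with 24.2% and 16.1% of genes called lower. Across 9 states the rise in quiescent stem cells was 0.85 (SE 0.07, adjusted p 9.29e-20), where 38.5% of genes were called higher. Cycling stem cells had a lower level than quiescent ones in 6 of 7 libraries, which did not pass (exact p 0.0781, adjusted 0.13).

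Lgals9 was higher in cycling than in quiescent stem cells and, among the 9 ranked states, had its largest mean in mitotic cells. Its level was 198 ± 51.8 CPM in mitotic cells without lineage markers, 164 ± 72.0 in early lymphoid, 154 ± 38.6 in early Mpo-positive, 136 ± 24.2 in cycling stem and 134 ± 31.0 in Dntt-positive cells (SD, n = 7). Monocyte-primed cells had 121 ± 52.7, Flt3-high 102 ± 17.7, granule-high 90.5 ± 31.3 and quiescent stem cells 79.6 ± 14.3. None of the 8 steps between neighbours passed (exact permutation p 0.109 to 0.734), yet cycling exceeded quiescent stem cells in 7 of 7 libraries, by 1.48- to 2.12-fold (exact permutation p 0.0156, adjusted 0.0391). In the fit over 5 states Lgals9 was lower in quiescent stem (log2 fold change -0.75, SE 0.05, adjusted p 6.73e-20) and Flt3-high cells (-0.27, SE 0.06, adjusted p 0.000341, with 7.70% of genes called lower). It was higher in early Mpo-positive (0.54, SE 0.04, adjusted p 1.24e-15), Dntt-positive (0.30, SE 0.05, adjusted p 2.21e-07) and cycling stem cells (0.18, SE 0.05, adjusted p 0.00261, with 16.9% of genes called higher). Across 9 states it was higher in mitotic (0.52, SE 0.11, adjusted p 0.000155) and early lymphoid cells (0.50, SE 0.08, adjusted p 2.84e-06), where 7.54% and 12.7% of genes were called higher. It was lower in granule-high cells (-0.36, SE 0.08, adjusted p 7.67e-05), where 37.3% of genes were called lower. The cells of the erythroid-leaning gate reached 384 CPM in KO3 (82 cells) and 264 in WT4 (132 cells), the only libraries with over 8 of them.

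Lgals4 was a low and even transcript, with state means from 2.92 CPM in mitotic to 6.41 CPM in monocyte-primed cells. None of its neighbouring states differed beyond their spread (exact permutation p 0.438 to 0.938), and 0 of its 5 contrasts in the fit over 5 states were called by edgeR (1 at an unadjusted p below 0.05). Its quiescent stem level of 5.71 ± 1.49 CPM gave a log2 fold change of 0.30 (SE 0.15, adjusted p 0.0758). Across 9 states the same contrast was 0.41 (SE 0.18, adjusted p 0.0426).

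Over the 35 sums of 5 states in 7 libraries, centred within libraries, Lgals1 and Lgals9 went together (Pearson r 0.78) and Lgals8 went against both (r -0.74 with Lgals1, -0.67 with Lgals9). These are descriptions, since the sums share libraries and depth. Of 10643 genes, those most like Lgals1 were Atp5f1 (r 0.94), an ATP synthase subunit, Cfl1 (0.93), the actin-severing protein cofilin, and Psmb5 (0.93), a proteasome subunit. Those most like Lgals9 were Ddx39 (0.95), Hnrnpa2b1 (0.94) and Nap1l1 (0.94), an RNA helicase, an RNA-binding protein and a nucleosome assembly protein. Lgals8 was most like Lcp2 (0.90), a signalling adaptor of blood cells, and Eya1 (0.88). For Lgals4 the highest were Pomgnt2 (0.71), a glycosyltransferase, Fam214b (0.67) and Gm26881 (0.66).

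By label, Lgals1 was the galectin that differed. Over all kept cells its plain CPM was 256, 204 and 188 in KO1 to KO3, against 84.7, 52.8, 59.0 and 121 in WT1 to WT4. Every KO library lay above every WT library, and WT4, of list B, was the nearest. With TMM normalisation the mean was 226 ± 35.9 normalised CPM in KO (SD, n = 3) and 79.7 ± 41.1 in WT (SD, n = 4), which edgeR, with the barcode list as covariate, put at 1.57 on the log2 scale (adjusted p 0.0360, SE 0.28). Of 14608 genes tested, 1.11% were called, 0.472% as higher in KO, and for 2.68% every KO library lay above every WT library. Lgals1 ranked 100th by p. List A alone gave 1.91 (adjusted p 0.00815, with 2.44% of 14845 genes called), and in list B the log2 ratio of KO3 to WT4 was 0.67. Without the covariate it was 1.504 (adjusted p 0.680), in a fit that called 0 genes, and leaving out any 1 of KO1, KO2, WT1, WT2 or WT3 took the adjusted p to 0.0658 to 0.134 with log2 fold changes of 1.28 to 1.70. More cells of a type and more RNA per cell cannot be told apart in these sums.

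**Figure D3:**
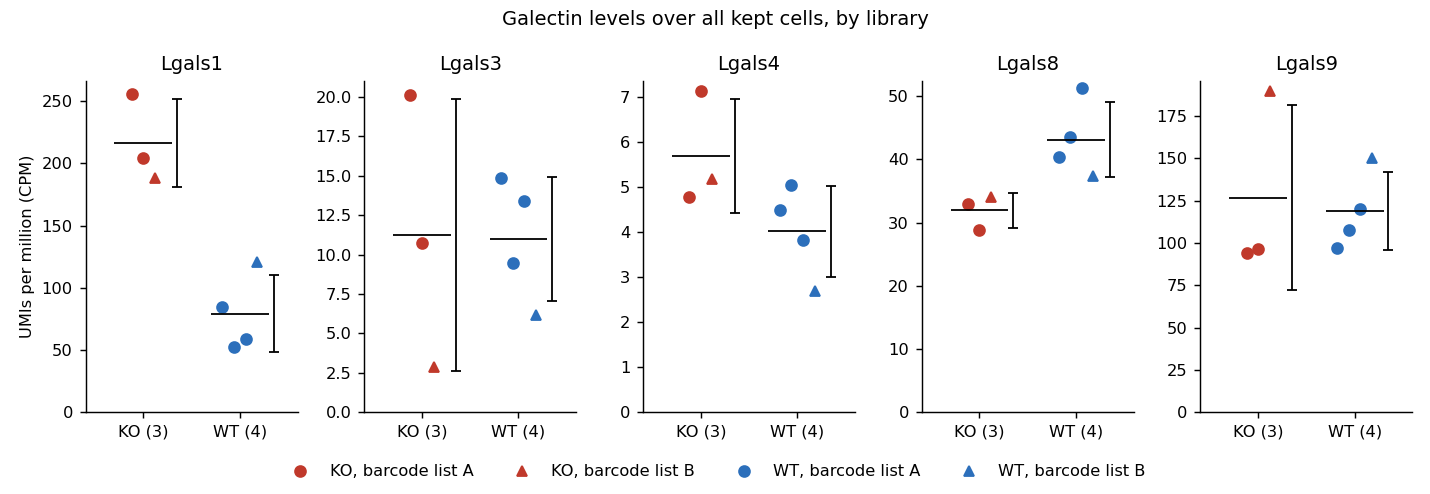
Level of each galectin in plain CPM over all kept cells of a library. Points are libraries, red for KO and blue for WT, circles for list A and triangles for list B, with the group mean as a bar and the SD beside it; the 3 KO libraries lie at 188 to 256 CPM of Lgals1 and the 4 WT libraries at 52.8 to 121.

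Granule-high cells, a gate with a high Lgals1 level, were also a larger share of the KO libraries: 23.0%, 15.1% and 4.77% of KO1 to KO3 against 3.62%, 2.22%, 0.600% and 1.56% of WT1 to WT4. They held 63.5%, 55.1% and 35.4% of the Lgals1 UMIs of the KO libraries and 5.88% to 44.6% of those of the WT libraries. The 4 primary-granule genes summed to 2427 to 10114 CPM in KO and 700 to 1934 in WT, and the monocyte genes to 279 to 1151 in KO and 136 to 311 in WT. Without the granule-high, monocyte-primed, neutrophil, MHC class II and basophil and mast cells, a set chosen after the values had been seen, Lgals1 stood at 108, 74.5 and 105 CPM in KO and 40.3, 31.8, 48.5 and 82.2 CPM in WT. The groups then overlapped, since KO2 lay under WT4, and the edgeR estimate was 0.94 on the log2 scale (adjusted p 0.108, SE 0.21, with 0.504% of 14676 genes called). Without the early Mpo-positive cells as well it was 0.65 (SE 0.20, adjusted p 0.387, with 0.290% of genes called). The part of cell composition in the label difference was not tested.

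Of the 9 states, Lgals1 passed by label in 1, the Dntt-positive gate, and the test of whether the difference varies between states, given below, did not pass. In Dntt-positive cells, gated on at least 2 UMIs of Dntt (terminal transferase, an enzyme of lymphoid development), the normalised CPM was 121, 81.3 and 166 in KO1 to KO3 and 44.2, 35.9, 44.7 and 102 in WT1 to WT4. The edgeR estimate was 1.08 on the log2 scale (adjusted p 0.00955, SE 0.17), in a fit that called 0.295% of 11179 genes. KO2 lay under WT4, of the other list, while within each list KO lay above WT: 1.29 in list A (adjusted p 0.0115) and a log2 ratio of 0.70 in list B. It passed in 6 of the 7 fits without 1 library, the exception being that without WT1 (adjusted p 0.0518), and it did not pass without the covariate (1.11, adjusted p 1.00). Granule and monocyte genes were also higher in every KO than in every WT library inside this gate: primary-granule genes summed to 1101 to 1381 CPM in KO and 550 to 768 in WT, and monocyte genes to 299 to 422 and 137 to 184. Mature erythroid genes did not overlap either, at 24.6 to 41.8 CPM in KO and 10.4 to 21.0 in WT. Their part in the Lgals1 difference was not tested, and the share of all genes that part the labels in this gate is not given here.

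In the other states Lgals1 did not pass. In early Mpo-positive cells it stood at 149, 102 and 155 normalised CPM in KO and 50.1, 39.1, 73.3 and 111 in WT (log2 fold change 0.97, SE 0.22, adjusted p 0.150, with 0.360% of 11670 genes called). In Flt3-high cells it was 69.3, 85.5 and 97.3 in KO and 33.7, 17.6, 32.8 and 76.3 in WT, and KO1 lay under WT4 (0.91, SE 0.24, adjusted p 0.281, with 0.0443% of genes called). The estimates were 0.44 (SE 0.23) in quiescent and 0.46 (SE 0.24) in cycling stem cells, with adjusted p of 1.00, where 0.0991% and 0.0190% of genes were called. In the 2 states with the largest Lgals1 means the estimates were near 0. Granule-high cells had 352, 333 and 809 normalised CPM in KO against 426, 225, 286 and 1068 in WT (-0.04, SE 0.22, adjusted p 1.00, with 0.00945% of genes called), and list B was the high pair under both labels. Monocyte-primed cells gave 0.02 (SE 0.29, adjusted p 0.995). These gates hold as few as 9 and 15 cells in a library.

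A test of whether the label difference varies over the 5 states with at least 20 cells in every library gave an unadjusted p of 0.00147 for Lgals1, with an adjusted p of 0.439, and called 0.0503% of 11922 genes. It did not pass with stricter gates (0.0876) or within list A (0.423), and it passed when marker sums were scaled to 10000 UMIs per cell before gating (0.0133). The difference between Dntt-positive and the myeloid gates was not tested, since those gates hold too few cells for that fit.

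**Figure D4:**
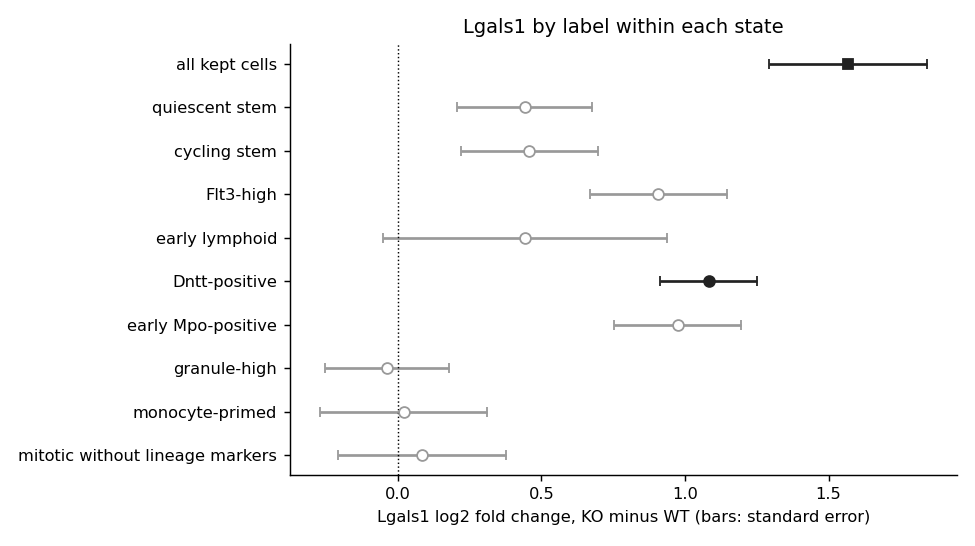
Log2 fold change of Lgals1 (KO minus WT, with the barcode list as covariate) over all kept cells and in 9 states; bars are standard errors, and filled symbols mark an edgeR adjusted p below 0.05. Dntt-positive cells stand at 1.08 and granule-high and monocyte-primed cells at -0.04 and 0.02.

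The other galectins did not pass by label. Lgals4 had 4.77, 7.13 and 5.18 plain CPM in KO and 4.48, 5.05, 3.82 and 2.70 in WT, which overlap. On the normalised scale KO lay at 4.95 to 6.81 and WT at 3.06 to 4.44 without overlap (log2 fold change 0.66, SE 0.21, adjusted p 0.145). Every KO library also lay above every WT library for 2.68% of 14608 genes. In quiescent stem cells every KO library also lay above every WT library (5.43, 8.06 and 8.08 against 4.52 to 4.98 normalised CPM), as did 0.883% of 12115 genes there, with a log2 fold change of 0.58 (SE 0.28, adjusted p 1.00). From 58 to 414 Lgals4 UMIs stood behind a library.

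Lgals8 was lower in KO on plain CPM without overlap, at 32.9, 28.8 and 34.0 against 40.4, 43.4, 51.2 and 37.4. The share of all genes without overlap on plain CPM is not given here. On the normalised scale KO3 (39.4) lay above WT1 and WT2 (38.7 and 38.2), with a log2 fold change of -0.32 (SE 0.14, adjusted p 0.247). Without the myeloid-gated cells the estimate was -0.11 (adjusted p 0.999). Lgals9 stood at 94.3, 96.6 and 190 plain CPM in KO and 97.0, 108, 120 and 150 in WT (log2 fold change 0.07, SE 0.14, adjusted p 0.833). KO3 and WT4, the list B libraries, were the highest under their labels. Lgals3 had 20.1, 10.7 and 2.86 plain CPM in KO and 14.8, 9.46, 13.4 and 6.16 in WT (0.01, SE 0.37, adjusted p 0.996), with an estimate of 0.42 within list A and a log2 ratio of -1.07 within list B. KO1 was the highest of all libraries and KO3 the lowest.

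For Lgals1 the share of cells with at least 1 UMI, after each cell was thinned to 3000 UMIs, was also higher in KO but did not pass after adjustment. It was 34.2%, 27.5% and 25.3% in KO and 14.2%, 10.5%, 12.6% and 19.6% in WT, a mean of 29.0% ± 4.60 (SD, n = 3) against 14.2% ± 3.91 (SD, n = 4). The groups did not overlap (exact permutation test over 35 splits, two-sided, p 0.0286, the smallest possible, and 0.0714 adjusted over the 5 galectins). Before thinning the shares were 43.8% to 57.3% in KO and 22.4% to 39.4% in WT. The thinned share of Lgals4 was 1.81% ± 0.321 in KO (SD, n = 3) and 1.20% ± 0.266 in WT (SD, n = 4), also without overlap (exact p 0.0286, adjusted 0.0714). How many of all genes part the labels by thinned share is not given here. Lgals8 had 10.5% ± 1.41 and 13.5% ± 1.68 (exact p 0.0857, adjusted 0.143), Lgals9 28.7% ± 7.88 and 26.0% ± 2.94 (exact p 0.600, adjusted 0.750) and Lgals3 1.41% ± 0.996 and 1.33% ± 0.583 (exact p 0.886, adjusted 0.886). Thinning left out 0.686% to 9.39% of the cells of a library. The exact test over all libraries has no barcode-list covariate. Within list A the exact test has 10 splits and cannot go below 0.1.

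Of a list of 12 galectin family genes, 11 were among the genes counted and 7 were tested. Lgals1 was called higher and 0 were lower, where 0.472% and 0.637% of all genes were, and the median log2 fold change was 0.18, against 0.01 over all genes tested. Lgals3bp, a secreted glycoprotein that binds galectin-3, was at 52.6 to 69.1 normalised CPM in KO and 47.8 to 61.1 in WT (log2 fold change 0.18, SE 0.12, adjusted p 0.424). Lgalsl, a galectin-like gene, had a log2 fold change of 0.25 (SE 0.21, adjusted p 0.540). Lgals2 and Lgals12 had 5 UMIs each and Lgals7 had 103 over all libraries.

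Of 24 genes that build or cap the galactose ends on glycans, 23 were tested, 0 were called higher and 1 lower, with a median log2 fold change of 0.01. Over all genes 0.472% were called higher and 0.637% lower, with the same rounded median. The gene called lower was St3gal6, a sialyltransferase that caps galactose, at 3.55, 2.60 and 14.9 normalised CPM in KO and 5.49, 7.42, 8.18 and 26.3 in WT. Its level was highest in list B under both labels, and it was lower in KO within each list (log2 fold change -1.05, SE 0.19, adjusted p 0.0391, with 0.637% of genes called lower). It did not pass in list A alone (-1.20, adjusted p 0.0599) or without the covariate (-0.75, adjusted p 1.00). Gcnt2, which branches chains of galactose and N-acetylglucosamine, had 165, 262 and 278 normalised CPM in KO and 359, 424, 420 and 366 in WT. Every KO library lay below every WT library, as for 3.07% of genes, and the difference did not pass (-0.76, SE 0.20, adjusted p 0.110). B3gnt8, which extends such chains, had 0.80 (SE 0.21, adjusted p 0.108). Of 18 genes for glycoproteins and partners that galectins bind, 17 were tested and 0 were called by edgeR, with a median of 0.17. Over all genes 1.11% were called and the median was 0.01. At that share 0 calls among 17 genes is no result about them. Lgals3bp is in this list and in the galectin family list. The smallest p belonged to Lamp2 (0.40, SE 0.13, adjusted p 0.162) and Lamp1 (0.41, SE 0.15, adjusted p 0.191), the heavily glycosylated proteins of the lysosomal membrane, and to Trim16 (-0.30, SE 0.13, adjusted p 0.238), a partner of galectin-3 at damaged vesicles. Unadjusted, 4 of the 17 were below 0.05, these 3 and Bsg, where 2792 of all 14608 genes were, a like share.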

How the data were processed

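UMI counts of 7 libraries were used as deposited; per the file headers Cell Ranger 7.0.0 wrote them, and the submitters' processing notes name mm10 and Seurat 4.4.0 with no role. The kit in the labels is 10X Genomics v2. Members and gene lists were chosen with earlier results of these data known. Cells needed 1000 UMIs, 500 genes and at most 10% mitochondrial UMIs; doublets were not removed. Counts were summed per library, over all kept cells and per gate, and tested across all genes with edgeR 4.0.16 (R 4.3.3; quasi-likelihood, TMM, filterByExpr, robust, two-sided), with the barcode list as covariate, or the library as block between states, and Benjamini-Hochberg adjustment over all tested genes at 0.05. Normalised CPM uses TMM factors and plain CPM does not. Named genes were the 5 galectins, family genes of at least 1 CPM, list members past the threshold or with the 3 smallest p, and the 3 genes most correlated with each galectin (mean of at least 5 CPM); 1 of these is not reported here. On simulated data with 200 genes changed by a log2 fold of 1, the label fit recovered 99.5% (14698 genes), the state fit 100% (11830) and the interaction 57.5% (11832). The simulation gave every gene the same spread between libraries and changed only genes over 5 CPM in list A. Recovery in the real data can therefore be lower, and a test that did not pass does not show that a difference is absent. Alternatives included DESeq2 1.42.0 and fits without each library; fits without myeloid-gated cells, with scaled gates or with 9 states and all interaction alternatives were added after seeing the data.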

Additional observations from a re-analysis of the deposited data

Results flagged for a closer look

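In Dntt-positive cells 1 WT library stood apart for Lgals1: WT4 had 102 normalised CPM where WT1, WT2 and WT3 had 44.2, 35.9 and 44.7. The gap took 0.866 of the group's range, above the 95% limit of Dixon's test for 4 samples. WT4 is the WT library of barcode list B. Of 28 groups examined this way 1 was marked, and chance marks about 1 in 20.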

How the results depend on the processing

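Over all kept cells 162 genes were called, against 0 without the barcode-list covariate (2792 at an unadjusted p below 0.05 with it), 362 in list A alone, 547 without a filter on low counts, 856 with DESeq2, 74 without myeloid-gated cells, 41 also without early Mpo-positive cells, and 16 to 349 without 1 library. Of the 5 galectins 1 was called; 0 were without the covariate, without the filter (Lgals1 adjusted p 0.0587), without the top 5% of cells by UMIs (0.0610) and in both fits without myeloid cells, and 0 to 1 without 1 library. Of the galectin label tests within states 1 was called, against 0 without the covariate, 3 without the filter and 0 to 1 without 1 library. The 11 calls between states were 21 over 9 states and 11 to 12 without 1 library. Such calls were common over all genes: each contrast called 1829 to 7020 of 11922 genes over 5 states. Over 9 states each called 1134 to 8411 of 11956. The number of galectin calls is therefore not read as a result about galectins. The interaction called 0 galectins, 1 with scaled gates and 0 without any 1 library. Shares of cells gave 0 calls without 1 library, where 6 libraries allow no p below 0.05, so this says nothing of stability.

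Whether replicate numbers pair the libraries is not settled. Deviations of same-numbered libraries correlated at 0.52, 0.71 and -0.34, and the last pair, KO3 and WT3, crosses the barcode lists. KO1 and KO2 were each most correlated with the WT library of their own number. Their other pairs with WT libraries of list A gave 0.23 to 0.50. KO3 was most correlated with WT4 (0.89), of its own list. With the replicate block and the barcode list, 2277 genes were called, Lgals1 had a log2 fold change of 1.89, and 4 galectin tests within states passed. In that fit WT4 is alone in its replicate, and KO3 and WT3 cross the lists. Its label estimates therefore rest on KO1, KO2, WT1 and WT2 alone, and its calls are not read as stronger evidence.

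Of 402 single-gene values under alternatives, 347 kept direction and side of the threshold, 19 lost the call, 8 gained it and 28 changed sign; the cause was not tested. Without 1 library the share of cells ranged from -0.433 to 0.561 percentage points for Lgals3 and from -1.81 to 5.12 for Lgals9, which was -0.473 in list A. Over all kept cells Lgals3 ranged from -0.553 to 0.436 on the log2 scale without 1 library and was -0.0341 with at least 3000 UMIs per cell and -0.0285 without the top 5% of cells. Lgals9 ranged from -0.0777 to 0.147 and was -0.0851 in list A. Lgals1 by label, without 1 library, ranged from -0.0027 to 0.769 in cycling stem, -0.191 to 0.150 in granule-high, -0.340 to 0.368 in monocyte-primed, -0.122 to 1.11 in early lymphoid and -0.0910 to 0.562 in mitotic cells. It was 0.121 in granule-high cells of list A and -0.0635 in monocyte-primed cells without the covariate. Between 9 states signs changed for Lgals1 in Dntt-positive (-0.320) and early Mpo-positive cells (-0.0384) and for Lgals8 in Dntt-positive cells (0.0773). Lgals4 and the gates with few cells are limited by UMI counts.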
